A study of Homo sapiens with 6 samples.

Results

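The genes described here encode the subunits of gamma-secretase, the Notch receptors and the ligand JAG1. They are APH1A, APH1B, PSEN2, NCSTN, PSENEN, NOTCH1, NOTCH2, NOTCH3 and JAG1, 9 genes of the 19775 that had a probe set with a single gene symbol. Every probe set whose only symbol in the platform table was one of these names was taken, which gave 25 probe sets of the 54613 that were not controls. Of the 25, 20 probe sets were tested, because their signal was above the array's median on at least 2 of the 6 arrays, and 5 were not. All 9 genes had at least 1 tested probe set. One further probe set names a member among several genes and was left out.

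The transcripts come from RT-112, an established human bladder cancer cell line, and were read on 6 oligonucleotide arrays, 2 in each of 3 groups. Cells of the siRNA 1 group received siPPP2R2A_1 and cells of the siRNA 2 group received siPPP2R2A_2, both aimed at PPP2R2A, the gene of a regulatory B subunit of the phosphatase PP2A, and the control cells received a scramble siRNA. All groups had the same handling, with 50 nM siRNA carried by Lipofectamine RNAiMAX, a repeat transfection after 24 h and RNA isolation 24 h later. The knockdown is transient, in 1 cell line, and the series describes the 2 arrays of a group (A and B) as technical duplicates. The p-values below therefore measure the spread between these samples and not that between separate experiments, and the number of arrays limits their precision.

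Notch receptors are single-pass membrane proteins that are activated by ligands on a neighbouring cell, such as JAG1. Ligand binding exposes the receptor to a sheddase, and gamma-secretase then cuts the remaining stub inside the membrane, so that the intracellular domain can move to the nucleus and join the DNA-binding protein RBPJ. Gamma-secretase is a complex of a presenilin, which holds the catalytic site, nicastrin (NCSTN), an APH1 protein (APH1A or APH1B) and PEN-2 (PSENEN). In stratified epithelia, the urothelium included, Notch signalling is known for its part in differentiation.

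PPP2R2A itself had signals of 336 and 397 on the siRNA 1 arrays and 509.96 and 533 on the siRNA 2 arrays, against 1381 and 1589 on the scramble arrays. Both siRNAs thus left it below both scramble arrays. Its log2 change was -2.02 with siRNA 1 (limma adjusted p = 0.0413) and -1.51 with siRNA 2 (adjusted p = 0.0458). Without any 1 of the 6 arrays these were 0.123 to 0.183 and 0.114 to 0.190. Over the tested genes, the log2 signals of duplicates correlated at 0.979 to 0.980 and those of arrays from different groups at 0.970 to 0.977. Of 16 epithelial and urothelial markers, 14 passed the filter, among them GATA3, PPARG, UPK1B and the keratins KRT5 and KRT7. UPK1A and UPK3A, uroplakins of the differentiated surface cell, did not pass it. The uroplakins UPK2 (50.3 to 154) and UPK3B (375 to 581) did, and so did KRT20 (10.9 to 93.4), on 2 arrays. The summed signal of these 16 markers was 145456 to 150519 with siRNA 1 and 126357 to 133553 with siRNA 2, against 148518 to 153597 with scramble. Markers of immune cells (4 genes, 2 above the filter), endothelium (4 genes, 2 above) and fibroblasts (6 genes, 3 above) summed to 166 to 306, 321 to 480 and 5760.2 to 7580.2 over the 6 arrays, and PTPRC, CD14, KDR, COL1A2, COL3A1 and PDGFRB lay below the filter on every array. LUM (4520 to 6351), COL1A1 (867 to 1175), PECAM1 (159 to 240) and CDH5 (73.2 to 147) were above it on all 6. LUM, an extracellular matrix proteoglycan, had 122% of its scramble mean with siRNA 1 and 93.6% with siRNA 2. The 3' to 5' signal ratio of ACTB, a sign of RNA integrity, was 6.52 and 7.82 with siRNA 1 and 7.47 and 12.4 with siRNA 2, against 5.43 and 5.94 with scramble. The same ratio of GAPDH was 1.00 and 1.02 with siRNA 1 and 1.00 and 0.943 with siRNA 2, against 1.00 and 1.00 with scramble. The part of these markers and of these ratios in the results below was not tested.

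The comparison of each siRNA with scramble asks which of these genes changed when PPP2R2A was silenced, and the comparison of the siRNAs asks whether they changed alike. Among the 9 genes, APH1A alone met the threshold of the test, which asked for at least a 1.5-fold change and a limma adjusted p under 0.05 on log2(signal + 1). It fell with siRNA 1, and it was lower with siRNA 1 than with siRNA 2. JAG1 had a higher signal with both siRNAs on its 3 brightest probe sets, by less than 1.5-fold, and was not called. The other 7 genes were called in none of the 4 contrasts. Limma thus called 1 of the 9 genes for siRNA 1 minus scramble, where 0.400% of all 12749 genes tested were called, and 0 of 9 for siRNA 2 minus scramble, where 0.604% were. It called 1 of 9 for siRNA 1 minus siRNA 2, against 0.157% of all genes, and 0 of 9 for the mean of both siRNAs minus scramble, against 0.518%. At an unadjusted p under 0.05 the 9 genes gave counts of 2, 1, 1 and 2 in that order of contrasts, where 16.2%, 20.7%, 18.6% and 18.5% of all genes passed. The median log2 change of the 9 genes was 0.03 with siRNA 1 and 0.01 with siRNA 2, against 0.01 and 0.02 over all genes tested.

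**Figure D1:**
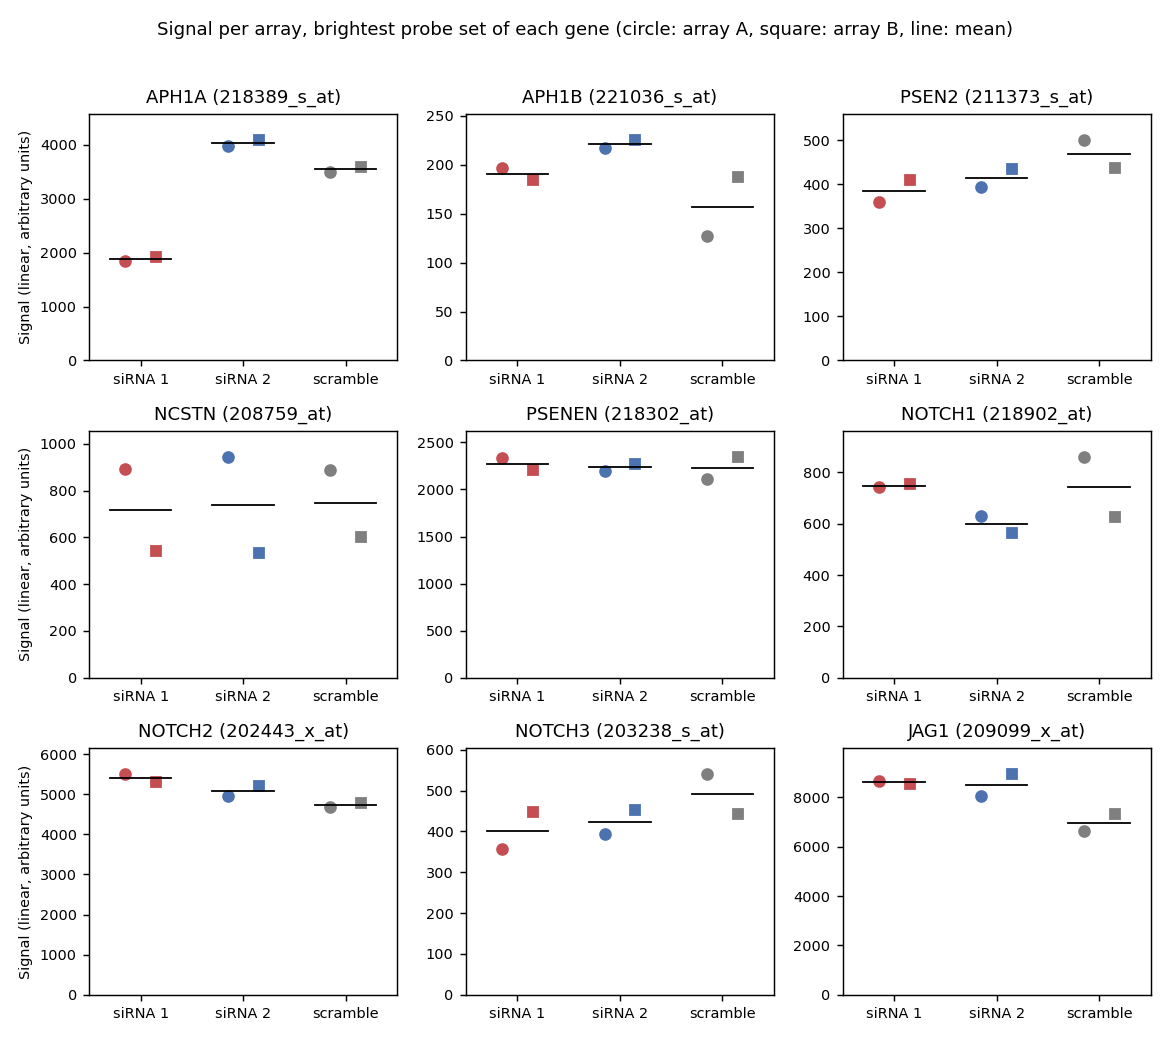
Signal of the brightest probe set of each of the 9 genes on every array (linear scale, arbitrary units, axes from 0). Circles are arrays A, squares arrays B, and lines the mean of the 2 arrays. The siRNA 1 arrays of APH1A, at 1839 and 1910.3, lie well below all other arrays, while for NCSTN the A arrays lie above the B arrays in each group.

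Among the gamma-secretase subunits, APH1A encodes the APH1 protein that most cell types use as the scaffold of the complex. Its brightest probe set, 218389_s_at, read 1839 and 1910.3 on the siRNA 1 arrays and 3978 and 4090.2 on the siRNA 2 arrays, against 3499.7 and 3588 on the scramble arrays. The siRNA 1 arrays were the lowest of the 6 and the siRNA 2 arrays the highest, with no overlap between any groups. The siRNA 1 signal, 1874.8 ± 50.2, was 52.9% of the scramble signal of 3544 ± 62.5 (SD, n = 2 each). The log2 change was -0.92 with a 95% interval of -1.12 to -0.72 (limma adjusted p = 0.0479). With siRNA 2 it averaged 4034 ± 79.1, a log2 change of 0.19 that was not called (interval -0.01 to 0.39, adjusted p = 0.265). The difference between the siRNAs, siRNA 1 minus siRNA 2, was -1.11 (interval -1.31 to -0.90, adjusted p = 0.0475). Both calls lie close to the threshold. Without any 1 of the 6 arrays limma called neither, with a log2 change of -0.95 to -0.89 against scramble (adjusted p from 0.148 to 0.227) and of -1.13 to -1.08 against siRNA 2 (0.134 to 0.198). Nor did it call them with the array letter as a replicate block (adjusted p = 0.161 and 0.160), nor in 4 of 9 other settings of the processing (0.115 to 0.192 and 0.0888 to 0.181), among them centring the arrays on their medians.

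The other APH1A probe sets are dimmer. On 1554417_s_at the signals were 180 and 158 with siRNA 1 and 383 and 288 with siRNA 2, against 217 and 454 with scramble. The siRNA 1 arrays were again the lowest of the 6, but the scramble arrays differed from each other by more than the means of the siRNA groups did. On 237327_at, close to the filter level of 69.3 to 76.2, the signals were 68.7 and 61.5 with siRNA 1 and 93.8 and 113 with siRNA 2, against 110.1 and 100.1 with scramble. This probe set was below the filter on both siRNA 1 arrays and passed it through the other 4 arrays alone, so it is given as values and adds no support. The 2 APH1A probe sets above the filter on all 6 arrays read lower on both siRNA 1 arrays than on the other 4 arrays, at 52.9% and 50.3% of their scramble means, an arrangement that 10.3% of all 23969 probe sets tested had. When every probe set was tested on its own, limma called 0 of the 20 member probe sets in each of the 4 contrasts (218389_s_at adjusted p = 0.0833 for siRNA 1 minus scramble and 0.0927 for siRNA 1 minus siRNA 2). In that fit 0%, 0.00417%, 0.0125% and 0% of all probe sets were called for siRNA 1, siRNA 2, their mean and siRNA 1 minus siRNA 2. At an unadjusted p under 0.05, 5, 2, 5 and 3 of the 20 passed, where 13.7%, 18.0%, 15.7% and 16.2% of all probe sets did. All of these counts but that for siRNA 2 include 237327_at, which adds no support for the reason given above.

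**Figure D2:**
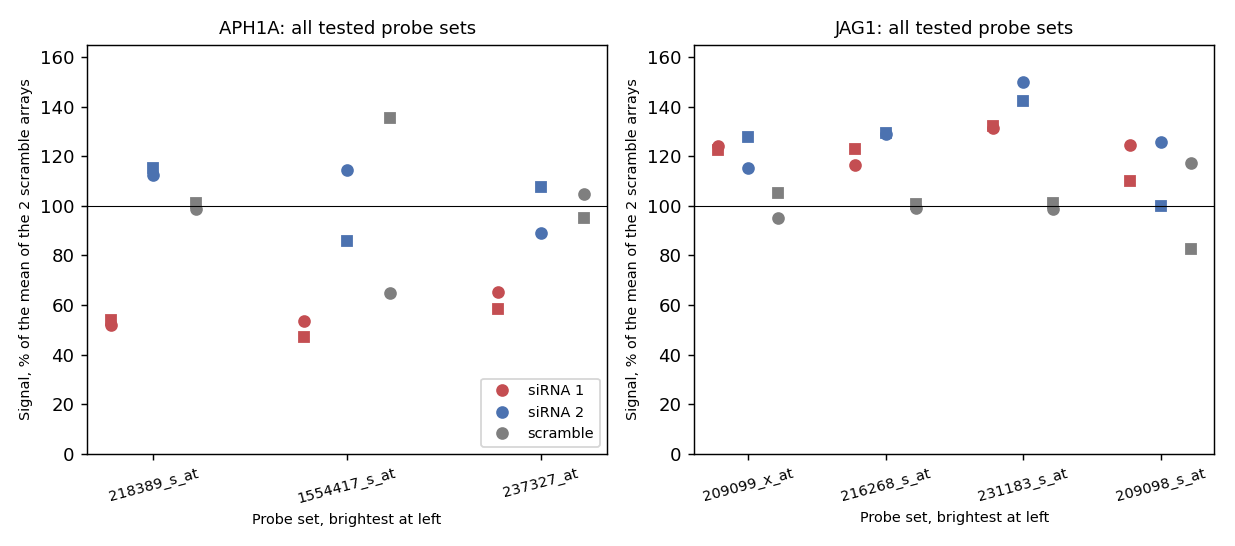
Signal of each tested probe set of APH1A (left) and JAG1 (right) on every array, as a percentage of the mean of the 2 scramble arrays. Circles are arrays A and squares arrays B. The mean siRNA 1 signal is 52.9% for 218389_s_at and 50.3% for 1554417_s_at, 237327_at is below the filter with siRNA 1, and for JAG1 both siRNAs lie above both scramble arrays on the 3 brightest probe sets.

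The bases before the start of APH1A are shown because it alone among the members was called, close to the threshold. In RefSeq's promoter table (GRCh38.p14), which held 8 of the 9 members, the 250 bases upstream of its start are chr1:150269017-150269266 on the minus strand, printed 5′ to 3′ on the gene's strand. Capitals mark CCAAT and the GC box GGGCGG, on either strand.

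APH1A: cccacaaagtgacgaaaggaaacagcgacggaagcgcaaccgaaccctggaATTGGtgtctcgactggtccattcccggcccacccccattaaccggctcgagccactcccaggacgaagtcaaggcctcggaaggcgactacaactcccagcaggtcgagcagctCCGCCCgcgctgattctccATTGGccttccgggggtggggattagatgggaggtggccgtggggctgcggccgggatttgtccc

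This window holds 2 matches to CCAAT, which 32.0% of all 35116 windows of this length in the table contain, and 1 to GGGCGG, which 42.6% contain. The motifs do not overlap each other here. A match is a description of the letters and not evidence of binding.

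APH1B, the paralog that can take the place of APH1A in the complex, had low signals. Its probe set 221036_s_at read 197 and 184 with siRNA 1 and 217 and 225 with siRNA 2, against 127 and 188 with scramble. The siRNA 2 arrays were above both scramble arrays, while the siRNA 1 arrays lay within the scramble range or just above it. These are log2 changes of 0.30 (interval -0.22 to 0.82, adjusted p = 0.526) and 0.51 (-0.01 to 1.04, adjusted p = 0.247). They rest on the scramble arrays, which differ. Without scramble array A they were 0.022 and 0.24, and without scramble array B 0.58 and 0.79. On the probe set 226358_at the signals were 124 and 114 with siRNA 1 and 168 and 169.7 with siRNA 2, against 110.5 and 157 with scramble, so that siRNA 1 turned to a log2 change of -0.15 while siRNA 2 stayed above scramble at 0.36.

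PSEN2 encodes a presenilin, the catalytic subunit. On 211373_s_at it read 360.2 and 410.4 with siRNA 1 and 394 and 435 with siRNA 2, against 500.5 and 436 with scramble. All knockdown arrays lay below both scramble arrays on this probe set, an arrangement that 11.3% of all probe sets had, and the siRNA 2 array B was below scramble array B by less than the spread of either pair. They correspond to log2 changes of -0.28 (adjusted p = 0.360) and -0.18 (adjusted p = 0.489). The probe set 204262_s_at read 316 and 267 with siRNA 1 and 305 and 333 with siRNA 2, against 304 and 331 with scramble, with overlap between all groups. The dim 204261_s_at read 54.5 and 39.7 with siRNA 1 and 104 and 31.8 with siRNA 2, against 83.4 and 81.2 with scramble. Its siRNA 2 arrays thus lay on either side of scramble.

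NCSTN encodes nicastrin, the large glycoprotein subunit that takes part in substrate recognition. Its tested probe set 208759_at read 890.5 and 541 with siRNA 1 and 943 and 531 with siRNA 2, against 889.9 and 601 with scramble (arrays A and B of each group). The groups overlapped fully, and the 3 A arrays lay above the 3 B arrays. The A arrays averaged 908 ± 30.4 and the B arrays 558 ± 37.9 (SD, n = 3 each), a larger gap than any between treatments, and 2.45% of all genes tested had all A arrays above all B arrays. The labels do not say what the letters stand for. The log2 changes were -0.08 with siRNA 1 (interval -1.15 to 0.99, adjusted p = 0.949) and -0.05 with siRNA 2 (-1.12 to 1.02, adjusted p = 0.963), so intervals as wide as a 2-fold change in either direction remain. A further probe set, 237076_at, was below the filter at 11.2 to 52.1.

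PSENEN encodes PEN-2, the smallest subunit, which is needed for maturation of the presenilin. Its single probe set 218302_at read 2330.2 and 2209.97 with siRNA 1 and 2192 and 2276 with siRNA 2, against 2109 and 2343 with scramble. The scramble arrays enclosed all 4 knockdown arrays. Its log2 changes, 0.03 (interval -0.21 to 0.27, adjusted p = 0.906) and 0.01 (-0.24 to 0.25, adjusted p = 0.976), had the narrowest intervals around 0 among the subunits other than APH1A.

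Of the Notch receptors, NOTCH1 had 1 tested probe set, 218902_at. It read 743 and 754 with siRNA 1 and 629 and 566 with siRNA 2, against 859 and 624 with scramble. Both siRNA 1 arrays were above both siRNA 2 arrays, and each siRNA group overlapped the range spanned by scramble. The log2 changes were 0.03 with siRNA 1 (adjusted p = 0.9496) and -0.30 with siRNA 2 (adjusted p = 0.412), and the difference siRNA 1 minus siRNA 2 was 0.33 (interval -0.13 to 0.78, adjusted p = 0.393). Without scramble array A the changes were 0.26 and -0.066, and without scramble array B -0.20 and -0.53. A second probe set, 223508_at, stood below the filter at 7.90 to 28.0.

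NOTCH2 had 4 tested probe sets, which did not move together. On the brightest, 202443_x_at, the signals were 5493 and 5295 with siRNA 1 and 4965 and 5205 with siRNA 2, against 4683 and 4786 with scramble. All knockdown arrays were above both scramble arrays, by log2 changes of 0.19 (interval -0.02 to 0.39, adjusted p = 0.338) and 0.10 (-0.10 to 0.31, adjusted p = 0.523). Probe sets of this type can bind related transcripts, and the NOTCH2NL genes are partial copies of NOTCH2. The second, 212377_s_at, read 3443 and 3250 with siRNA 1 and 3576 and 3290.1 with siRNA 2, against 3104 and 3034 with scramble, again with every knockdown array above scramble. The dimmer pair went other ways. On 210756_s_at the signals were 291 and 251 with siRNA 1 and 311 and 237 with siRNA 2, against 324 and 294 with scramble. On 202445_s_at they were 313 and 269 with siRNA 1 and 219 and 224 with siRNA 2, against 211 and 292 with scramble.

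NOTCH3, on 203238_s_at, read 357 and 446 with siRNA 1 and 393 and 453 with siRNA 2, against 539 and 443 with scramble. The highest array was a scramble array and the lowest a siRNA 1 array, and the groups overlapped. The log2 changes were -0.29 (interval -0.74 to 0.15, adjusted p = 0.479) and -0.21 (-0.66 to 0.23, adjusted p = 0.545). The other NOTCH3 probe set, 203237_s_at, was below the filter, at 10.8 to 25.5.

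JAG1 is a transmembrane ligand of the Notch receptors and can itself be cut by gamma-secretase. On its brightest probe set, 209099_x_at, it read 8673 and 8553 with siRNA 1 and 8053 and 8928 with siRNA 2, against 6631 and 7325 with scramble. All 4 knockdown arrays were above both scramble arrays, at 123% and 122% of the scramble mean. The log2 changes were 0.31 with siRNA 1 (interval 0.05 to 0.56, adjusted p = 0.258) and 0.28 with siRNA 2 (0.02 to 0.54, adjusted p = 0.214), which did not pass the test. The siRNAs differed by 0.02 (interval -0.24 to 0.28).

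The same arrangement was seen on 2 further JAG1 probe sets. On 216268_s_at the signals were 6114 and 6436 with siRNA 1 and 6764 and 6789 with siRNA 2, against 5199 and 5286 with scramble, which are log2 changes of 0.26 and 0.37. On 231183_s_at they were 1796 and 1808 with siRNA 1 and 2051 and 1947 with siRNA 2, against 1353 and 1384 with scramble. This probe set had the largest JAG1 changes, 0.40 (interval 0.16 to 0.63, adjusted p = 0.217 among all probe sets) and 0.55 (0.31 to 0.78, adjusted p = 0.105). On the fourth, 209098_s_at, the groups overlapped, with 496 and 438 for siRNA 1 and 500.5 and 397 for siRNA 2, against 466 and 329 for scramble. The remaining JAG1 probe sets, 229924_s_at and 209097_s_at, were below the filter, at 5.84 to 52.6. Of all 20 tested member probe sets, 5 had all knockdown arrays above both scramble arrays, 3 of JAG1 and 2 of NOTCH2, where 12.2% of all probe sets tested did. Both siRNA 1 arrays were above both scramble arrays on 5 of the 20 and below them on 6, where 23.7% and 23.0% of all probe sets were. Of these 6, 237327_at of APH1A and 204261_s_at of PSEN2 were below the filter on both siRNA 1 arrays. For siRNA 2 these counts were 8 and 1 (24.7% and 25.9%). Both siRNA 1 arrays were above both siRNA 2 arrays on 3 and below them on 7 (24.6% and 24.1%). These 7 also include 237327_at, below the filter on both siRNA 1 arrays. The probe sets of one gene read the same RNA and are not independent of each other, and both siRNA comparisons share the scramble arrays.

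**Figure D3:**
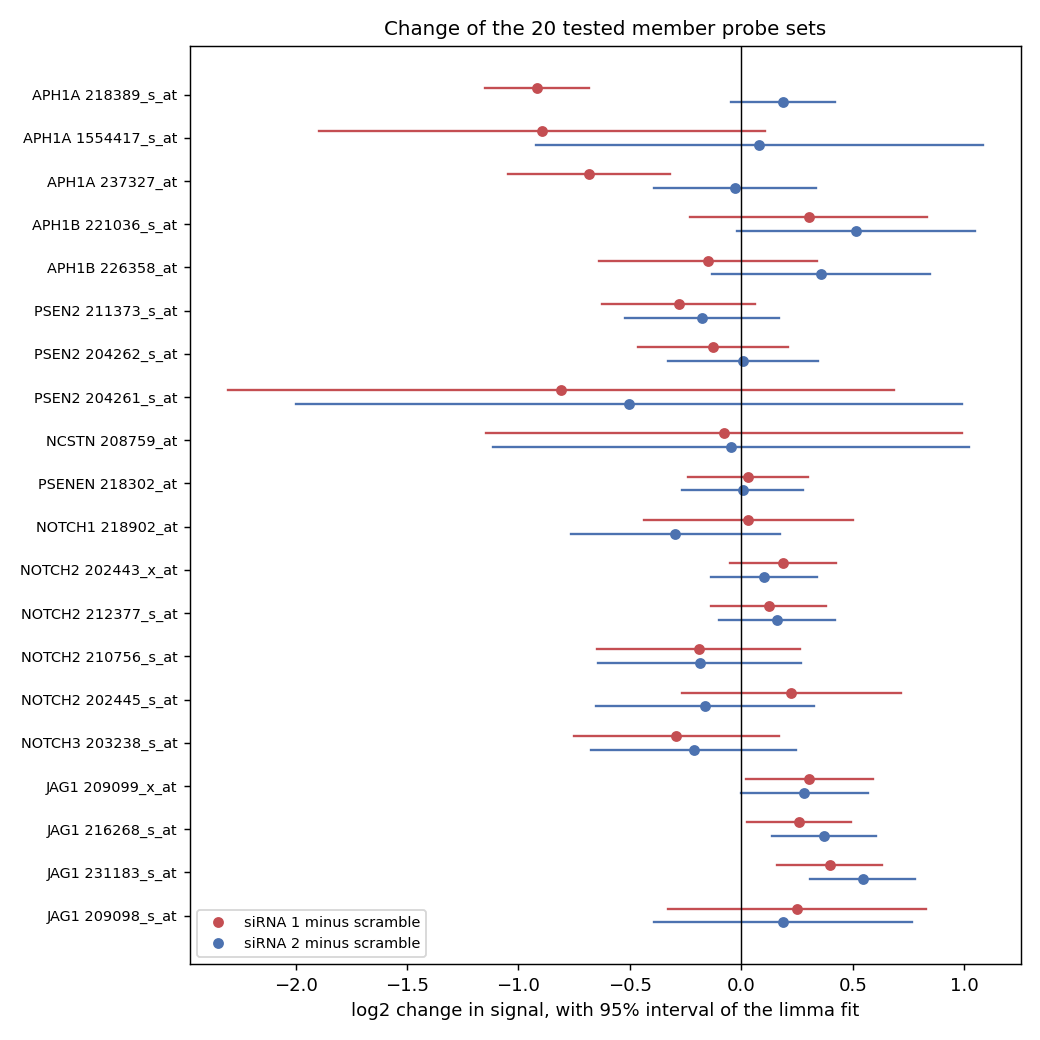
Log2 change in signal of the 20 tested member probe sets with siRNA 1 (red) and siRNA 2 (blue), each minus scramble, with the 95% interval of the limma fit over all probe sets. The APH1A probe sets 218389_s_at and 1554417_s_at lie at -0.92 and -0.89 with siRNA 1, and the 4 JAG1 probe sets lie right of 0 with both siRNAs. The third APH1A probe set, 237327_at (-0.68), was below the filter on both siRNA 1 arrays and adds no support.

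JAG1's upstream window is printed as that of the member with the most probe sets above scramble with both siRNAs. It covers chr20:10674000-10674249 (GRCh38.p14, minus strand), and capitals mark GGGCGG on either strand.

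JAG1: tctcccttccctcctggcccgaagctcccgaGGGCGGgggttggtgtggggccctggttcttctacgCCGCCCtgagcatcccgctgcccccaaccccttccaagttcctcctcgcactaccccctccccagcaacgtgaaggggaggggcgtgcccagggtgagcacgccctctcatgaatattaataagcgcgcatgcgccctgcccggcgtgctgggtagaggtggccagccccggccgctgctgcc

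HES1 is shown beside it because it is the classical target gene of Notch, with sites for RBPJ close to its start. Its window is chr3:194135898-194136147 (GRCh38.p14, plus strand), and capitals mark TGGGAA, the core letters that RBPJ binds, searched on both strands.

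HES1: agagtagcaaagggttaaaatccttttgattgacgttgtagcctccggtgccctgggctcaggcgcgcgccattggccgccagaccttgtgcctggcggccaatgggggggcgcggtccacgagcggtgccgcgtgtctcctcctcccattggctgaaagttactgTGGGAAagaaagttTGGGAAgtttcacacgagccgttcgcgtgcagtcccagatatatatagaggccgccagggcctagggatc

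TGGGAA occurred 2 times in the HES1 window, 0 times in those of APH1A and JAG1 and 1 time in that of PSENEN, and 20.8% of all windows hold it. In these arrays HES1 read 3816 and 3637 with siRNA 1 and 3812 and 3339.9 with siRNA 2, against 3799 and 4078 with scramble. Its log2 changes were -0.08 (adjusted p = 0.754) and -0.14 (adjusted p = 0.506), with both siRNAs overlapping scramble.

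The rest of the pathway was followed in 7 lists of other genes, of which 68 of 80 genes were tested. Limma called 0 of the 68 in each of the 4 contrasts. At an unadjusted p under 0.05, 9 were higher and 9 lower with siRNA 1, where 9.53% and 6.68% of all genes were. With siRNA 2, 8 were higher and 12 lower (12.0% and 8.74% of all genes), and for the mean of both siRNAs 8 were higher and 2 lower (11.1% and 7.44%). With siRNA 1 minus siRNA 2, 14 were higher and 10 lower (9.12% and 9.51%). The 8 higher with siRNA 2 and these 10 lower include HEYL, which passed the filter on the siRNA 2 arrays alone and adds no support. The median log2 change of the 68 was -0.03 with either siRNA. From each list, the 2 genes with the highest mean signal are named, with their log2 changes for siRNA 1 and siRNA 2 minus scramble in that order.

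Among gene products that associate with gamma-secretase (4 tested), TMED10, a cargo receptor found with the complex, had log2 changes of -0.04 and 0.14. RER1, a sorting receptor that holds unassembled subunits in the early secretory pathway, read 1621 and 1438 with siRNA 1 and 3113 and 3060.4 with siRNA 2, against 2332 and 2744 with scramble. As for APH1A, its siRNA 1 arrays were the lowest of the 6 and its siRNA 2 arrays the highest. Of all genes tested, 10.7% had both siRNA 1 arrays below all scramble and siRNA 2 arrays. Its log2 change was -0.73 with siRNA 1 (adjusted p = 0.0992) and 0.29 with siRNA 2 (adjusted p = 0.273), and siRNA 1 minus siRNA 2 was -1.01 (adjusted p = 0.0664), none of them called. Of the other ligands (5 tested), JAG2 stood at -0.03 and -0.34, and DLK2 at -0.40 and -0.23. Only DLL1, singled out after its values were seen, lay above 0 with either siRNA. It read 150 and 163 with siRNA 1 and 162 and 143 with siRNA 2, against 90.9 and 107 with scramble. Its log2 changes were 0.66 (limma adjusted p = 0.129) and 0.62 (limma adjusted p = 0.0976), neither of them called.

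The sheddases that cut Notch before gamma-secretase, ADAM10 and ADAM17, were named from the 10 tested genes for maturation and shedding. ADAM10 had log2 changes of -0.09 and -0.21 and ADAM17 of 0.29 and 0.01. Among 11 genes for endocytosis and turnover, the kinase AAK1 stood at 0.10 and -0.15 and the ubiquitin ligase DTX4 at 0.39 and 0.14. In the nuclear complex (12 tested), the deacetylase HDAC1 stood at -0.04 and 0.00 and the cofactor SNW1 at -0.07 and 0.47. RBPJ, singled out after its values were seen, read 3527 and 2737 with siRNA 1 and 2688 and 2339 with siRNA 2, against 1815 and 1928 with scramble, which are log2 changes of 0.73 (adjusted p = 0.155) and 0.42 (adjusted p = 0.231). All its knockdown arrays were above both scramble arrays, as for 14.7% of all genes tested.

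Of the 10 tested genes listed as Notch targets, 1 lay above 0 with siRNA 1 and 4 with siRNA 2, at median log2 changes of -0.30 and -0.10, against 0.01 and 0.02 over all genes, of which 52.2% and 52.4% lay above 0. None was called, and at an unadjusted p under 0.05, 4 were lower and 1 higher with siRNA 1, where 6.68% and 9.53% of all genes were. With siRNA 2, 2 were lower and 2 higher, where 8.74% and 12.0% of all genes were. The 2 higher, and the 4 above 0, include HEYL, which passed the filter on its siRNA 2 arrays alone (117 and 104). It read 44.6 to 64.5 on the other arrays, so its place in these counts adds no support. MYC stood at -0.33 and -0.48 and CCND1, which encodes cyclin D1, at -0.46 and -0.15, and many other signals also act on both. NRARP, a feedback inhibitor of Notch chosen here after its values were seen, read 239 and 356 with siRNA 1 and 433 and 575 with siRNA 2, against 547 and 533 with scramble. Its siRNA 1 arrays were the lowest of the 6, as for 10.7% of all genes tested. The log2 change of NRARP with siRNA 1 was -0.89 and was not called (limma adjusted p = 0.212), while siRNA 2 lay on both sides of scramble. HEY1, also chosen after its values were seen, read 861 and 693 with siRNA 1 and 1325 and 1298 with siRNA 2, against 1099 and 1122 with scramble. Its log2 changes were -0.52 (limma adjusted p = 0.176) and 0.24 (limma adjusted p = 0.366), neither of them called. Among 16 tested substrates of gamma-secretase other than the members, CDH1, which encodes E-cadherin, stood at 0.16 and -0.49 and EPCAM at 0.11 and 0.09.

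**Figure D4:**
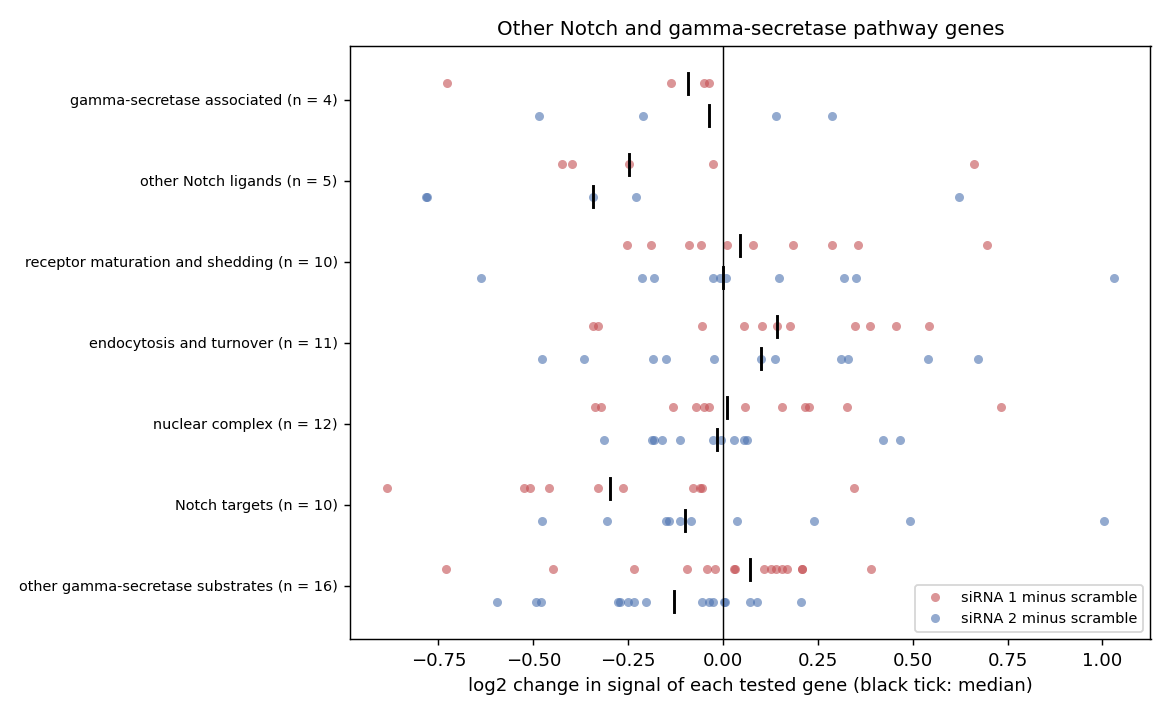
Log2 change in signal of each tested gene in the 7 lists of other pathway genes with siRNA 1 (red) and siRNA 2 (blue), each minus scramble. Black ticks are the list medians. Those of the Notch targets are -0.30 and -0.10, and the points spread to both sides of 0 except those of the gamma-secretase associated genes with siRNA 1.

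As a description over 6 arrays, with 12740 other genes to choose from, the gene whose log2 signal ran most like APH1A was HIPK3 (Pearson r = 0.999). For JAG1 it was EPC1 (0.990), for NOTCH1 PLIN3 (0.987), for NOTCH2 POLR3GL (0.990) and for NOTCH3 MMP15 (0.991). For APH1B it was URB1-AS1 (0.999), for PSEN2 ADAM28 (0.993), for NCSTN LOC220077 (0.982) and for PSENEN DIABLO (0.978). With so few arrays and so many candidates, values this high were found for each of the 9 genes.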

How the data were processed

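The authors deposited linear signal intensity per probe set for the 6 arrays, made with Affymetrix Expression Console per the submitters' processing notes. The sources used here name neither its version nor its algorithm. The mean after trimming 2% from each tail was 500.067 to 500.07 on every array, and no detection calls were used. Groups came from the sample titles, one of which spells the gene differently and was assigned by its siRNA number.

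Of 54675 probe sets, 41091 had 1 symbol, 1801 several and 11721 none, and 62 were controls. Platform-table symbols were checked against RefSeq's gene list through Entrez identifiers (41037 matched, 54 did not, 0 changed). The probe set with the highest mean signal stood for its gene. A feature was tested where its signal exceeded the 50th percentile of the array on 2 or more arrays, as 12749 genes or 23969 probe sets did. Values of log2(signal + 1) were fitted with limma 3.58.1 in R 4.3.3 (a coefficient per group over all 6 arrays, 3 residual degrees of freedom, Benjamini-Hochberg adjustment over all features tested). The fit was tested on simulated data. Sequences were read in Python 3.11.15 and figures drawn with matplotlib 3.10.9.

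The members, the lists and the tests were chosen with earlier results of these data known. The genes named are the members and their probe sets, PPP2R2A, any called gene and the 2 brightest genes of each pathway list, and the gene most like each member. HES1, DLL1, RBPJ, NRARP, HEY1, HEYL and the markers were picked with their values in view. The alternatives tried were quantile normalization, centring arrays on their medians, a replicate block, an intensity trend, a pseudocount of 16, no filter, a filter on all arrays, averaging the probe sets of each gene, leaving out probe sets of types _s_at and _x_at, leaving out each array, and, chosen after seeing the data, representing a gene by its highest mean log2 signal.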

Additional observations from a re-analysis of the deposited data

Results flagged for a closer look

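APH1A had different values with the siRNAs in the fit over all genes, which sets the difference against the spread of technical duplicates and not against that of separate transfections. The log2 difference, siRNA 1 minus siRNA 2, was -1.11 (limma adjusted p = 0.0475), with both siRNA 1 arrays below and both siRNA 2 arrays above the scramble arrays. Its adjusted p ranged from 4.80e-05 to 0.198 over the other settings and the fits without 1 array.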

How the results depend on the processing

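Without _s_at and _x_at probe sets APH1A is read by 237327_at alone, and averaging its probe sets includes 237327_at. That probe set was below the filter on both siRNA 1 arrays, so it adds no support to the direction in these settings. Against scramble and against siRNA 2 alike, APH1A kept its direction with siRNA 1 in all 10 other settings, these included, and in the 6 fits without 1 array. Its call was kept in 5 of the 10 settings in each contrast. No member gene was called for either contrast after centring arrays on their medians, with the replicate block, without a filter or when the probe sets of each gene were averaged. Nor was any called without _s_at and _x_at probe sets, where PSEN2, NOTCH2, NOTCH3 and JAG1 had no probe set left to test. The cause was not tested. In fits without 1 array, the array left alone in its group is assumed to vary like the others. Testing each probe set alone, limma called 1 member probe set in both contrasts, 218389_s_at, with an intensity trend and with the filter on all arrays. The replicate block (APH1A adjusted p = 0.161 and 0.160) changed no other call of a member, and those of PPP2R2A were lost too. The A minus B differences of the groups correlated at -0.02 to 0.03, so the letters showed no general pairing. A pairing limited to some genes was not tested.

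Over all genes limma called 51, 77 and 20 for siRNA 1 minus scramble, siRNA 2 minus scramble and siRNA 1 minus siRNA 2. These became 299, 472 and 362 with an intensity trend, 244, 401 and 289 with the filter on all arrays, 70, 161 and 30 with a pseudocount of 16, 32, 72 and 12 after quantile normalization, 11, 1 and 0 after centring, and 6, 0 and 5 without _s_at and _x_at probe sets. They were 0 with the block, without a filter, with mean probe sets and without any 1 array, where 1398 to 2527 genes passed an unadjusted p under 0.05.

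Of 560 gene values, 31 changed sign, none of them of a called gene in the contrast where it was called. Without _s_at and _x_at probe sets APH1A stood at -0.029 with siRNA 2 and APH1B at -0.15 with siRNA 1. With mean probe sets JAG1 stood at -0.35 and NOTCH3 at 0.51 for siRNA 1 minus siRNA 2, NOTCH3 at 0.021 with siRNA 1, NOTCH1 at 0.16 with siRNA 2 and 0.18 for both, and NOTCH2 at -0.021 with siRNA 2. After quantile normalization PSENEN stood at -0.0049 with siRNA 2. Without 1 array, NCSTN ranged from -0.44 to 0.28 with siRNA 1, -0.46 to 0.37 with siRNA 2, -0.34 to 0.22 for both and -0.44 to 0.38 between the siRNAs. PSENEN ranged from -0.046 to 0.106, -0.069 to 0.083, -0.058 to 0.094 and -0.015 to 0.061 in the same order. NOTCH1 ranged from -0.20 to 0.26 with siRNA 1, -0.53 to -0.066 with siRNA 2 and -0.36 to 0.10 for both, APH1B from 0.022 to 0.58 with siRNA 1 and 0.24 to 0.79 with siRNA 2, NOTCH3 from -0.45 to -0.13 with siRNA 1 and -0.35 to -0.072 with siRNA 2, PSEN2 from -0.38 to -0.18 with siRNA 1 and -0.27 to -0.077 with siRNA 2, and between the siRNAs NOTCH3 ranged from -0.24 to 0.081 and JAG1 from -0.052 to 0.10.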
